A study of Mus musculus with 6 samples.

Results

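Interferon-response and antigen-processing genes were followed in hearts of 10-day-old mice lacking miR-1-2, a gene for the muscle microRNA miR-1. The 31 genes were chosen by name, with earlier results of these data known. They comprise type I interferon targets, interferon gamma induced GTPases, antigen-processing genes, transcription factors of the pathway and 1 chemokine. Of the 31 genes, 29 were measured, among 18193 genes on the array. Where several probe sets carried the symbol, the brightest on average across all 6 arrays stood for the gene. The array's annotation assigns the Isg15 probe set to a second gene as well and assigns no probe set to Ifi44, so these 2 genes were not analysed here.

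Hearts came from 3 wild-type animals and from 3 animals lacking miR-1-2, all at postnatal day 10. Whole heart tissue from each mouse was hybridised to 1 expression array, and values are log2 RMA signals. The sources used here state neither strain, litter and sex nor how the knockout allele was made. Heart identity was plain in both groups: 8 cardiomyocyte markers, among them Myh6, Tnnt2 and Actc1, lay between 11.42 and 14.52 on every array.

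Interferons are secreted signals that set cells into an antiviral state. Type I interferons act through a complex that includes STAT2 and IRF9 and binds a response element (ISRE) in target genes such as the Ifit, Oas and Mx families. Interferon gamma acts mainly through gamma-activated sites (GAS) and induces immunity-related GTPases, guanylate-binding proteins and the immunoproteasome and peptide transporter that load MHC class I. In an uninfected heart these genes are expressed at a resting level by muscle, endothelial and immune cells together.

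Hearts differed by more than their genotype. Xist, which coats the inactive X and is silent in male cells, was at 7.55 and 7.57 in knockout replicates 1 and 3 and between 11.91 and 12.19 on the other 4 arrays, so sex appeared to differ within the knockout group and between the groups. Ucp1 of brown fat stood at 9.45 in wild-type replicate 1 and 10.39 in knockout replicate 1, against 5.22 to 6.68 elsewhere. Array medians lay between 6.03 and 6.11. Precision is set by having only 3 arrays in a group.

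Promoter sequences show which members carry the letters of these elements, and that GTPases and type I targets both do. In RefSeq windows of GRCm38.p6, 250 bases before to 50 after each gene start, the ISRE core GAAANNGAAA was searched on both strands. It was found in 4 of the 4 GTPase genes with a window (Igtp, Irgm1, Gbp2 and Gbp3; the table held none for Iigp1), in 8 of 14 type I targets, in Stat2 and Cxcl10, and in 0 of 3 antigen-processing genes. Over all the genes on the list it was in 14 of 26, against 3.99% of 27025 genes with a window. Such a match is a description and no test of binding. The stretches below show the core in capitals (as TTTCNNTTTC where it lies on the opposite strand) with up to 25 bases on each side, 5′ to 3′ on the gene's strand and ending before the gene start.
Igtp (chr11:58199497-58199555, plus strand): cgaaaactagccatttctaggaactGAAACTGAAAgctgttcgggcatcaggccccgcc
Irgm1 (chr11:48871421-48871475, minus strand): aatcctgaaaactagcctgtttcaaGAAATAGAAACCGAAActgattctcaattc
Gbp2 (chr3:142620579-142620638, plus strand): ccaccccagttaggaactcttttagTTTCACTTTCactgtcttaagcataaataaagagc
Gbp3 (chr3:142559974-142560039, plus strand): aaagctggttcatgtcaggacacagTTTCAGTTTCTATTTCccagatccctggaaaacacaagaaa
Ifit1 (chr19:34640760-34640838, plus strand): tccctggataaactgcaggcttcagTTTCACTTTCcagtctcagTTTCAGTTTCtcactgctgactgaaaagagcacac
Ifit3 (chr19:34583348-34583441, plus strand): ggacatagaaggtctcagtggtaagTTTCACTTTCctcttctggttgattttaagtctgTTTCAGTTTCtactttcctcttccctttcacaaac
Rsad2 (chr12:26456538-26456597, minus strand): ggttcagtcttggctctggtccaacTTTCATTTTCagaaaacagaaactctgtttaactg
Oas1a (chr5:120907526-120907570, minus strand): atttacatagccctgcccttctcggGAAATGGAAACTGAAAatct

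In Irgm1, Gbp3 and Oas1a a pair of cores overlaps, so that GAAA (or TTTC on the opposite strand) is repeated 3 times in a row. In Ifit1 and Ifit3 a pair of cores lies apart. Among the cores printed, the first base lay between -156 in Ifit3 and -14 in Oas1a, counted in bases from the start. The GAS letters TTCNNNGAA, which read the same on both strands, were in 8 of 26 of the genes against 9.55% of all genes, among them Irf1, Irf8, Psmb8 and Igtp. In Bst2 and Ifitm3 a GAS match overlapped an ISRE core. Psmb9 and Tap1 are divergent neighbours, and their windows share 275 of 300 bases, so most of the letters searched are the same.

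**Figure D1:**
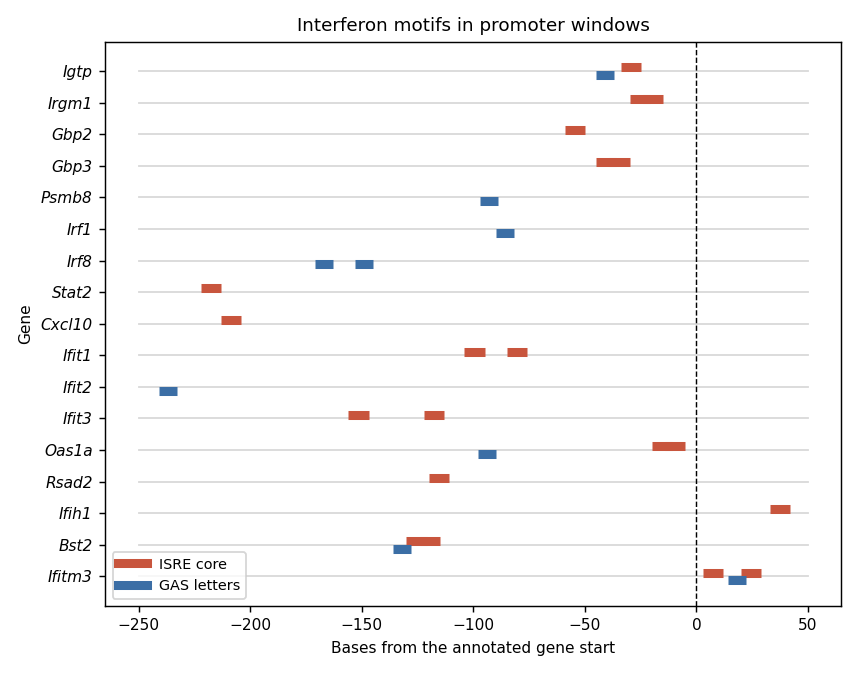
Position of ISRE cores (red) and GAS letters (blue) in bases from the annotated gene start (dashed line) for the 17 measured genes with a match. Grey lines mark the window searched, and the ISRE cores of Igtp, Irgm1, Gbp2 and Gbp3 start between -59 and -24 (the core nearest the start in each gene at -34, -24, -59 and -39).

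No common shift of the interferon genes was detected in the knockout hearts. Of the 29 genes, 18 had a higher and 11 a lower mean in knockout. Their median log2 difference was 0.018, beside 0.00048 over all genes. With limma, 0 of the 29 passed an adjusted p of 0.05 (Benjamini-Hochberg over all genes), where 0% of all genes passed. With the replicate number as a block 0 of the 29 passed as well, against 0.0715% of all genes (13 of 18193). At an unadjusted p under 0.05 the count was 1 of 29 without the block, against 4.10% of all genes, and 1 of 29 with it, against 7.29%. That gene was Iigp1 in both fits. Values of the groups did not overlap for 3 of the 29 genes (10.3%), against 8.86% of all genes: Iigp1 was lower, and Irgm1 and Xaf1 were higher.

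**Figure D2:**
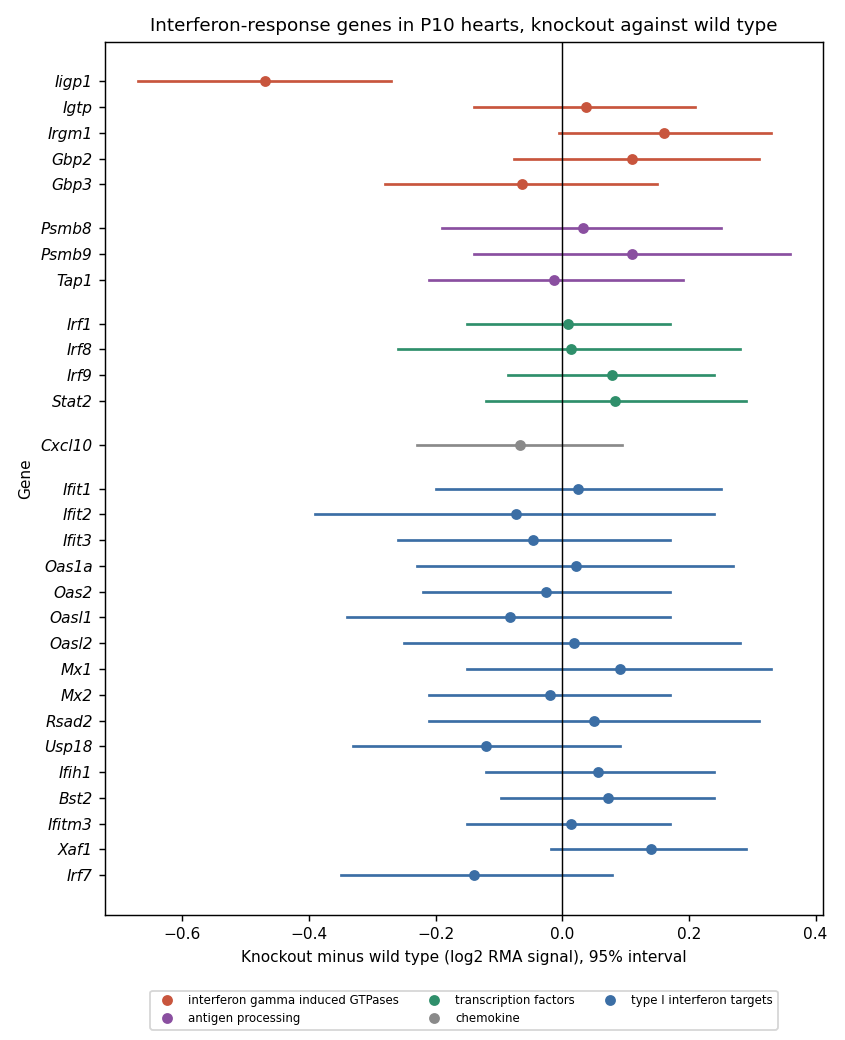
Log2 difference, knockout minus wild type, for each of the 29 genes (points) with its 95% interval from limma (lines), coloured by group of genes. Iigp1 lies at -0.47 with an interval from -0.67 to -0.27, and the intervals of the other 28 genes hold 0.

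The interferon gamma induced GTPases showed no common direction. Iigp1 was lower in knockout, and its relatives lay close to their wild-type signal or above it. Iigp1, also called Irga6, is an immunity-related GTPase that helps to break open the vacuoles in which intracellular parasites live. It stood at 7.58, 7.40 and 7.35 in wild-type replicates 1, 2 and 3, and at 7.08, 6.92 and 6.92 in knockout replicates 1, 2 and 3. Every knockout heart was thus below every wild-type heart, from which it follows that Iigp1 was lower in 3 of 3 same-numbered pairs. The log2 difference was -0.47 ± 0.087 (SE), a 1.39-fold lower signal, which did not pass over all genes with limma (adjusted p = 0.72, and adjusted p = 0.085 with the replicate number as a block). In a limma fit with array weights, where 2.29% of all genes passed, Iigp1 was the 1 gene of the 29 that passed (difference -0.49, adjusted p = 0.0162). Within the knockout group Iigp1 was at 6.92 in knockout replicate 2, with high Xist, and at 7.08 and 6.92 in knockout replicates 1 and 3, with low Xist. Xist was high in all 3 wild-type hearts, and the part of sex in the Iigp1 difference was not tested. The array weights ran from 0.222 for knockout replicate 1 to 4.74 for knockout replicate 3.

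A second probe set for Iigp1 was also lower in knockout. It read 7.48, 7.00 and 6.94 in wild-type replicates 1, 2 and 3 and 6.51, 6.78 and 6.79 in knockout, again with no overlap. Its difference was -0.45 ± 0.14 (SE; unadjusted p = 0.013, adjusted p = 1.00 over all probe sets with limma). Iigp1 lies on chromosome 18, as does Mib1, the host gene of miR-1-2, with 317 protein-coding genes between them in the RefSeq order. It is the only one of the 29 genes on that chromosome. Whether that position bears on its signal was not tested.

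Igtp and Irgm1, which with Iigp1 belong to the immunity-related GTPases, did not follow it down. Igtp, a GTPase of internal membranes, stood at 7.36, 7.16 and 7.26 in wild type and 7.33, 7.31 and 7.26 in knockout. Its groups overlapped, and its difference was 0.037 (95% interval from -0.14 to 0.21). Irgm1, a regulator of the other GTPases and of autophagy, stood at 7.07, 7.09 and 6.98 in wild type and 7.19, 7.15 and 7.29 in knockout. All 3 knockout hearts were above the wild-type hearts, with 7.15 and 7.09 the nearest pair of values. The difference of 0.16 ± 0.073 (SE) did not pass with limma (unadjusted p = 0.0558, adjusted p = 1.00).

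The guanylate-binding proteins Gbp2 and Gbp3, which coat pathogen vacuoles, had overlapping groups. Gbp2 read 6.32, 6.07 and 6.09 in wild type and 6.28, 6.24 and 6.31 in knockout, a difference of 0.11 (95% interval from -0.076 to 0.31). A second Gbp2 probe set differed by -0.040. Gbp3 read 6.02, 5.69 and 5.74 in wild type and 5.73, 5.74 and 5.77 in knockout, a difference of -0.064. In both genes wild-type replicate 1 was the highest of the 6 arrays, as it was for 4 of the 5 GTPases (80%, beside 16.7% of all genes).

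Set against the other GTPases within each heart, Iigp1 kept its difference. Iigp1 minus the mean of Igtp, Irgm1, Gbp2 and Gbp3 was 0.89, 0.89 and 0.84 in the wild-type hearts and 0.45, 0.31 and 0.27 in the knockout hearts. The group means were 0.87 ± 0.034 and 0.34 ± 0.096 (SD, n = 3), a difference of -0.53 with no overlap. Iigp1 was singled out by its values, so this is a description with no test.

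**Figure D3:**
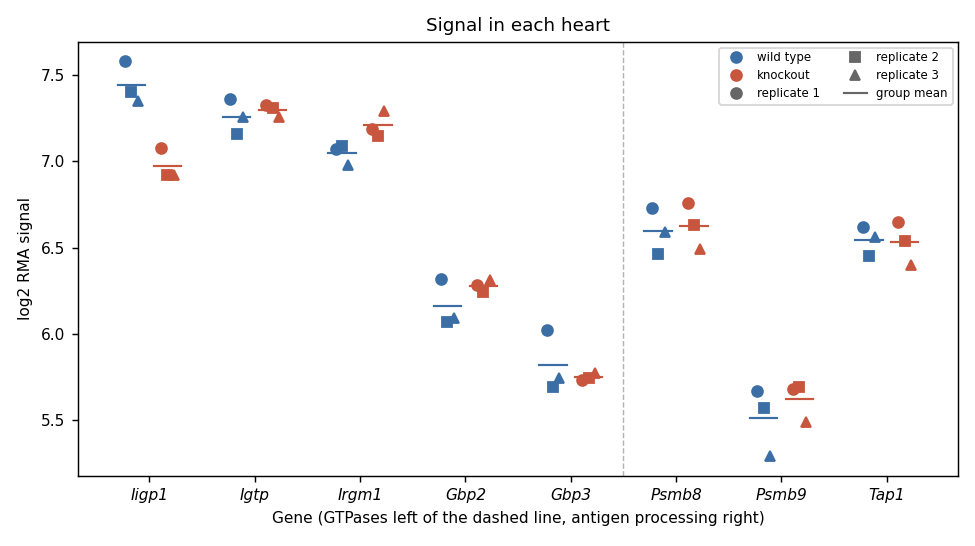
Log2 RMA signal (vertical axis) of the 5 GTPases and the 3 antigen-processing genes in each heart. Blue marks wild type, red marks knockout, the symbol gives the replicate number and the bar the group mean. Iigp1 spans 7.35 to 7.58 in wild type and 6.92 to 7.08 in knockout, while the groups overlap for Igtp, Gbp2, Gbp3 and the antigen-processing genes.

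No gene of antigen processing among the 29 differed beyond its spread on its brightest probe set. Psmb8, a catalytic subunit of the immunoproteasome, stood at 6.73, 6.46 and 6.59 in wild type and 6.76, 6.63 and 6.49 in knockout (difference 0.032). Psmb9, another such subunit, stood at 5.67, 5.57 and 5.29 in wild type and 5.68, 5.69 and 5.49 in knockout. Its difference of 0.11 had a 95% interval from -0.14 to 0.36, and it was higher in 3 of 3 pairs. Tap1, a subunit of the transporter that carries peptides to MHC class I, was at 6.62, 6.45 and 6.56 in wild type and 6.65, 6.54 and 6.40 in knockout (difference -0.013). The median over the 3 genes was 0.032. Dimmer probe sets of Tap1 differed by -0.14, -0.15 and 0.16, and a dimmer probe set of Psmb8 by 0.15. The Tap1 probe set at 0.16 and that of Psmb8 had groups apart, higher in knockout. Both were near the floor, at 3.28 to 3.60 and 3.40 to 3.71.

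Type I interferon targets showed no common direction either. Of the 16 measured, 9 had a higher and 7 a lower mean in knockout, with a median difference of 0.015, and 13 of the 16 differed by less than their standard error. With limma 0 of the 16 passed over all genes and 0 had an unadjusted p under 0.05, with or without the block. The sign of the median was not settled: it ran from -0.061 to 0.039 over the alternative settings, with 6 to 13 of the genes higher. The 95% intervals of the 16 genes reached no lower than -0.39 (Ifit2, 1.31-fold) and no higher than 0.33 (Mx1, 1.26-fold).

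Ifitm3, a membrane protein that blocks virus entry, was the brightest of them. It stood at 10.86, 10.73 and 10.72 in wild type and 10.80, 10.80 and 10.76 in knockout, a difference of 0.013 (95% interval from -0.15 to 0.17). Rsad2, which encodes the antiviral enzyme viperin, stood at 8.07, 7.60 and 7.85 in wild type and 7.87, 7.85 and 7.95 in knockout, a difference of 0.050. Its knockout values lay inside the wild-type range. Xaf1, a pro-apoptotic interferon target, stood at 7.83, 7.88 and 7.93 in wild type and 7.97, 8.07 and 8.02 in knockout. The difference of 0.14 ± 0.069 (SE) left the groups just apart and did not pass (unadjusted p = 0.0766, adjusted p = 1.00 with limma). A second Xaf1 probe set differed by 0.099, and its groups overlapped.

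Irf7 and Usp18, regulators within the type I program, had lower means in knockout that did not pass. Irf7, the factor that amplifies type I interferon production, stood at 6.05, 5.99 and 5.88 in wild type and 5.97, 5.88 and 5.67 in knockout, a difference of -0.14 (95% interval from -0.35 to 0.078). Usp18, the protease that removes ISG15 and dampens the receptor, stood at 5.63, 5.68 and 5.56 in wild type and 5.53, 5.65 and 5.33 in knockout, a difference of -0.12. Both were lower in 3 of 3 pairs, and knockout replicate 3 was the lowest array for both. Ifih1, the sensor of long double-stranded RNA known as MDA5, differed by 0.057 and Bst2, the tetherin that holds budding virus, by 0.072.

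Members of the Ifit, Oas and Mx families were often highest in a single knockout heart. Of the 16 type I targets, 7 had their highest value in knockout replicate 1 (43.8%, beside 23.9% of all genes), the heart with the highest Ucp1. These were Ifit1, Oas1a, Oas2, Oasl1, Oasl2, Mx1 and Mx2. Oas1a, a synthetase that activates RNase L, read 7.78 in knockout replicate 1 against 7.43 and 7.42 in knockout replicates 2 and 3 and 7.40 to 7.60 in wild type. Mx1, a dynamin-like antiviral GTPase, read 4.18 there against 3.95 and 3.87 in the other knockout hearts and 4.08, 3.82 and 3.83 in wild type, so that replicate 1 was the highest heart of either group. Ifit2, whose product binds viral RNA with its relatives, went the opposite way, at 6.69 in knockout replicate 1 against 7.18 and 7.19 in the other knockout hearts. The part of brown fat tissue in these values was not tested.

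Differences between the groups were small throughout these families. They were 0.025 for Ifit1, -0.073 for Ifit2 and -0.047 for Ifit3. The synthetase genes Oas1a and Oas2 differed by 0.022 and -0.025, and the related Oasl1 and Oasl2 by -0.083 and 0.018. Mx1 differed by 0.091 and Mx2 by -0.019. Without knockout replicate 1 the median over the 16 type I targets turned from 0.015 to -0.061. Ifit1, Oasl2, Mx1 and Cxcl10 had mean signals under 5, in the lowest part of the RMA scale, where differences are compressed.

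**Figure D4:**
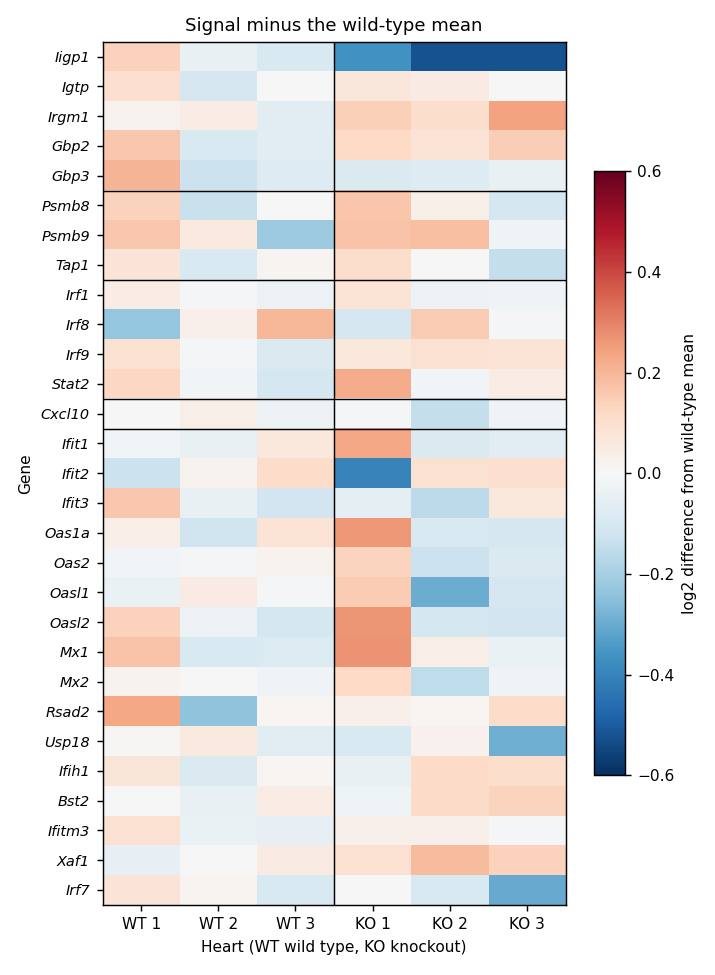
Signal of each of the 29 genes in each heart minus the wild-type mean of that gene, on the log2 scale (red above, blue below). Lines separate, from the top, GTPases, antigen processing, transcription factors, the chemokine and type I targets. The Iigp1 row is blue in all 3 knockout hearts, and the Oas1a, Oasl2 and Mx1 rows are reddest in knockout replicate 1.

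Transcription factors that carry the signal overlapped between the groups. Irf1, the early factor induced by interferon gamma, stood at 8.78, 8.73 and 8.70 in wild type and 8.82, 8.70 and 8.71 in knockout, a difference of 0.0084. Irf9 and Stat2, partners in the ISRE-binding complex, differed by 0.078 and 0.084. Irf8, which guides myeloid cell identity, differed by 0.013. Its dimmer probe set read 5.53, 5.53 and 5.55 in wild type and 5.46, 5.41 and 5.26 in knockout, a difference of -0.16 with groups apart (unadjusted p = 0.0697, adjusted p = 1.00 with limma). The chemokine Cxcl10, which draws T cells to inflamed tissue, lay between 3.53 and 3.71 on all 6 arrays and differed by -0.067. The 5th percentile of all values was 3.48, so Cxcl10 was near the floor in both groups.

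Set side by side as lists, the GTPases and the type I targets had medians close together. The median difference was 0.037 for the 5 GTPases, 0.021 above that of the 16 type I targets. This gap turned to -0.037 in the blocked fit without pair 2 and widened to 0.083 without knockout replicate 1. Per heart, the centred GTPase median minus the centred type I median was 0.062, -0.051 and -0.032 in wild type and 0.0062, 0.044 and 0.030 in knockout, so the groups overlapped. The median of the GTPases hides Iigp1: their mean was -0.045 with Iigp1 and 0.062 without it. In knockout replicate 1 both lists stood above their average (0.048 and 0.042), as they did in wild-type replicate 1 (0.098 and 0.036).

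Several members had more than 1 probe set, and these did not always point one way. Of 8 such genes, 3 (Iigp1, Xaf1 and Psmb8) had all probe sets in one direction and 5 (Rsad2, Gbp2, Tap1, Irf8 and Stat2) were split. Iigp1 was the only gene of the 8 in which each probe set separated the groups in the same direction.

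The 13 measured genes with the ISRE core differed by a median of 0.037 (10 higher, 3 lower, from -0.067 for Cxcl10 to 0.16 for Irgm1). The 11 measured genes with a window and no core differed by a median of 0.013 (from -0.14 for Irf7 to 0.14 for Xaf1). Iigp1 is in neither set, and the difference between the sets was not tested.

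Elsewhere in the pathway 0 genes passed with limma, with or without the block. Of 15 ligands, receptors and kinases 7 were higher and 8 lower. Without the block 2 (13.3%, beside 4.10% of all genes) had an unadjusted p under 0.05, both lower. These were Ifna4, an interferon alpha gene (4.49, 4.62 and 4.51 in wild type against 4.45, 4.10 and 4.27 in knockout), and Socs1, the feedback inhibitor of JAK kinases (6.33, 6.30 and 6.36 against 6.26, 6.16 and 5.93). Ifna4 was under 5 on every array, in the lowest part of the RMA scale, so its signal may be mostly background. Pias1, a SUMO ligase, was higher by 0.16 (unadjusted p = 0.109 with limma, and 0.0486 with the block). With the block 3 of the 15 thus fell under 0.05, beside 7.29% of all genes. Of 13 genes of RNA and DNA sensing 6 were higher and 7 lower, and 0 had an unadjusted p under 0.05. The 3 with the smallest p were Tlr7 at -0.11, Trim25 at 0.11 and Dhx58 at -0.070. Of 33 further type I targets 18 were higher, with a median of 0.0063, and 2 had an unadjusted p under 0.05 (6.06%, near the 4.10% of all genes). These were Ifi35, which differed by 0.26, and Parp9, which differed by 0.20. Next came Ifi47 at 0.15, higher in knockout with groups apart. It was listed here although it also encodes an immunity-related GTPase. Other probe sets of Ifi35 differed by 0.060, with overlapping groups, and by 0.15, with groups apart. Of 6 further chemokines 5 were lower, with a median of -0.078. Ccl7 differed by -0.14 with groups apart, Ccl12 by -0.25 and Ccl5 by -0.093. With array weights 5 of the 88 genes of the pathway and MHC lists passed (5.68%, beside 2.29% of all genes), Ifna4, Socs1, Ifi35, Gbp6 and Tapbp, with adjusted p from 0.0257 to 0.0478 in limma.

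Of 3 further genes listed as interferon gamma induced GTPases, Gbp6 differed by 0.33, Irgm2 by -0.060 and Gbp7 by -0.048. Gbp6 stood at 6.55, 6.81 and 6.85 in wild type and 6.88, 6.96 and 7.36 in knockout, opposite in sign to Iigp1 and with an SE of 0.14 (unadjusted p = 0.0405, adjusted p = 1.00 with limma, and adjusted p = 0.392 with the block). Its second probe set differed by 0.18, with overlapping groups.

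Genes of MHC class I and II and their loading leaned upward as a list. Of 18 measured, 17 had a higher mean in knockout (94.4%, beside 50.2% of all genes), with a median of 0.053. An unadjusted p under 0.05 was reached by 2 (11.1%, beside 4.10% of all genes). The count fell to 11 of 18 when Xist entered the fit and to 13 of 18 without wild-type replicate 2, wild-type replicate 3 or knockout replicate 1 and with the mean of probe sets, while the median stayed between 0.039 and 0.079. H2-K1, a class I heavy chain, stood at 9.32, 9.29 and 9.30 in wild type and 9.41, 9.82 and 9.57 in knockout (difference 0.30, unadjusted p = 0.0208, adjusted p = 1.00 with limma). Tapbp, the chaperone tapasin, stood at 8.72, 8.68 and 8.80 against 8.89, 8.97 and 9.00 (difference 0.22). B2m, the class I light chain, stood at 10.70, 10.73 and 10.73 against 10.77, 10.94 and 10.92 (difference 0.15). In these 3 genes every knockout heart was above every wild-type heart, but the second B2m probe set differed by 0.048 and the other 3 of H2-K1 by 0.12 to 0.17, all with overlapping groups. H2 genes are near-copies of each other, so signal of a probe set can come from more than 1 of them. Groups were apart for 4 of the 18 genes (22.2%, beside 8.86% of all genes).

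Most myeloid markers had a lower mean in knockout hearts, as Iigp1 did. Of 16 such genes 15 had a lower mean in knockout, with a median of -0.24 (-0.32 to -0.16 over the alternative settings). An unadjusted p under 0.05 was reached by 8 (50%, beside 4.10% of all genes) and by 10 with the block, where 7.29% of all genes reached it, all of these markers lower. With limma 0 passed over all genes in these fits. The markers were chosen with earlier results of these data known, so their shares are a description. With array weights, the fit in which Iigp1 passed, 3 myeloid markers passed too: Lyve1 (adjusted p = 0.0346), Mrc1 (adjusted p = 0.0372) and Adgre1 (adjusted p = 0.0437), against 2.29% of all genes. Cd68, a lysosomal protein of macrophages, stood at 6.38, 6.18 and 6.35 in wild type and 6.06, 5.86 and 6.03 in knockout. The summed linear signal of the 16 markers was 2750 to 3458 in wild type and 2346 to 2737 in knockout, and single markers lay between 4.27 and 9.39. In a whole heart, fewer cells of a type and less RNA per cell cannot be told apart. Both the summed signal and Iigp1 were lower in every knockout heart than in every wild-type heart. For the sums the gap was narrow, with 2750 in wild-type replicate 2 and 2737 in knockout replicate 1. Iigp1 stood at 7.40 and 7.08 in these hearts. The part of these cells in the Iigp1 difference was not tested.

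Markers of other cells were also read. Among 14 lymphoid markers 9 were lower (median -0.078), and their summed signal was 874 to 1001 in wild type and 816 to 953 in knockout. The highest of each group was replicate 1. In the blocked limma fit 3 of the 14 fell under an unadjusted p of 0.05, beside 7.29% of all genes. These were Cd3g (-0.38), Cd3d (-0.27) and Cd8b1 (-0.23), each lower in knockout. The unblocked fit gave 0 such markers, and 0 passed over all genes in either fit. Cd3g and Cd8b1 had group means under 5. With array weights 1 of the 14 passed, beside 2.29% of all genes. This was Nkg7, whose mean was also lower (adjusted p = 0.0442 with limma). Among 9 endothelial markers 6 were higher (median 0.025), and summed signals overlapped at 5424 to 6308 and 5414 to 6401. Medians were -0.017 for 7 fibroblast markers, 0.10 for 6 of brown fat and 0.096 for 3 erythroid markers. In the blocked fit 2 of the 6 brown fat markers, Ucp1 (0.73) and Cidea (0.34), had an unadjusted p under 0.05. So did 1 of the 3 erythroid markers, Alas2 (0.31), beside 7.29% of all genes, and all were higher in knockout. The unblocked fit gave 0 in both lists, and 0 passed over all genes in either fit. With array weights Alas2 passed (adjusted p = 0.0478 with limma). The 5 markers of plasmacytoid dendritic cells, the main source of type I interferon, had summed signals of 196 to 208 in wild type and 189 to 221 in knockout.

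**Figure D5:**
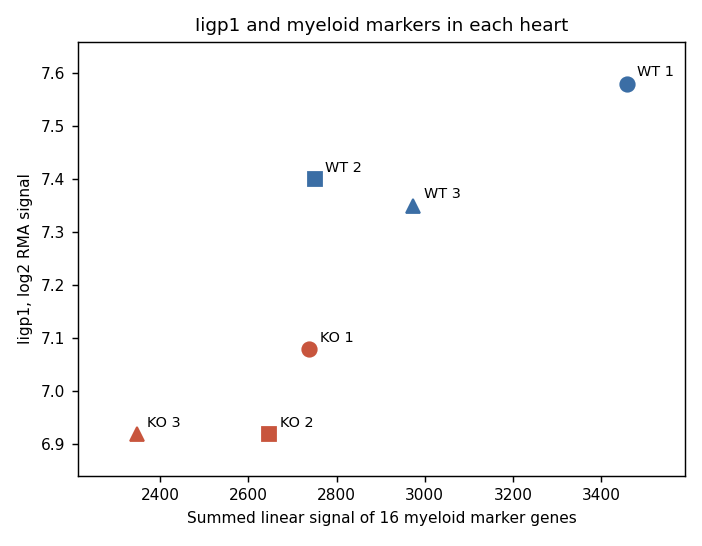
Iigp1 (vertical axis, log2 RMA signal) against the summed linear signal of 16 myeloid marker genes (horizontal axis) in each heart, with wild type in blue and knockout in red. Sums run from 2750 to 3458 in wild type and from 2346 to 2737 in knockout. Iigp1 runs from 7.35 to 7.58 in wild type and from 6.92 to 7.08 in knockout.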

How the data were processed

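Total RNA of 6 hearts was labelled with biotin, per the labels' protocols, and hybridised to arrays whose probe sets carry Affymetrix names. The deposited log2 values are RMA expression values that the authors made with the affy package, per the series' design text, and GCOS 1.4 is named in the submitters' processing notes. Their versions are not stated in those texts. RMA corrects background, normalizes quantiles and summarises probes, which compresses differences near the floor and removes shifts shared by most genes.

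Groups and replicate numbers came from the sample titles. The design text gives 3 mice per group. The 64 control probe sets were left out. Of 45037 probe sets, 34945 named 1 gene, 932 several and 9160 none, and symbols were updated through RefSeq (GRCm38.p6) by gene identifier, which matched 18031 of 18193 genes. Coordinates are given for promoter windows alone.

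Differences were tested across all genes with limma 3.58.1 in R 4.3.3 (lmFit, eBayes), with Benjamini-Hochberg adjustment and a threshold of 0.05. The steps were tested on simulated data. Arrays correlated at 0.991 to 0.997 and 0 pairs were identical. After group means were removed, arrays of equal number correlated at 0.54, 0.18 and 0.13 across genes. All lie above 0.1, so the replicate number was also fitted as a block. The crossed pairs of replicates 2 and 3 correlated at 0.30 and 0.35, so for these the pairing rests on the titles.

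Every heart's value is given for GTPases, antigen-processing genes and members with groups apart or an unadjusted p under 0.05. It is also given for the 3 brightest and the 3 most different of the rest, and up to 3 genes per pathway list were named by smallest p. Single-heart values of Oas1a, Ifit2 and Cd68 were added after values were seen. The members and lists were chosen with earlier results of these data known. Alternatives were the block, leaving out arrays, the mean of probe sets, a minimum mean of 5, a further quantile normalization, trend and robust variance, array weights and the Xist level as a covariate. Leaving out both first replicates, and Iigp1, was added after seeing the data.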

Additional observations from a re-analysis of the deposited data

How the results depend on the processing

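Over 17 alternatives Iigp1 differed by -0.53 to -0.40 and passed in 1 of them (array weights; adjusted p from 0.0162 to 1.00). Fitting the replicate block let 13 genes and 0 members pass. It could turn no sign, because each replicate number holds 1 array of each group and the differences stay the same. The trend and robust variance and the minimum mean of 5 leave the differences unchanged too. Genes passing numbered 416 with array weights (1 member), 3 with the mean of probe sets, and 0 to 36 when arrays were left out: 4 without knockout replicate 1, 2 without knockout replicate 2, 11 and 36 in the blocked fit without pair 1 or pair 2, and 1 without both first replicates. The type I median ran from -0.061 to 0.039 when arrays were left out, and was -0.041 with the Xist covariate. The GTPase median minus the type I median ran from -0.037 to 0.083 when arrays were left out and was 0.083 with the Xist covariate. The cause was not tested. Over the alternatives the GTPase median ran from -0.019 to 0.086 and the antigen-processing median from -0.047 to 0.10, so their signs were not settled either. Both moved by less than the spread between arrays in every alternative (SD 0.073 and 0.11, beside 0.041 for the type I targets).

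The sign held in all alternatives for 10 of 29 members (Mx1, Bst2, Xaf1, Irf7, Iigp1, Irgm1, Gbp2, Psmb9, Irf9 and Cxcl10). The other 19 have no settled direction. When arrays were left out, ranges that crossed 0 were -0.089 to 0.10 for Ifit1, -0.16 to 0.092 for Ifit2, -0.16 to 0.039 for Ifit3, -0.095 to 0.12 for Oas1a, -0.11 to 0.024 for Oas2, -0.22 to 0.054 for Oasl1, -0.11 to 0.084 for Oasl2, -0.089 to 0.049 for Mx2, -0.070 to 0.17 for Rsad2, -0.015 to 0.14 for Ifih1, -0.015 to 0.058 for Ifitm3, -0.019 to 0.086 for Igtp, -0.13 to 0.046 for Gbp3, -0.037 to 0.10 for Psmb8, -0.072 to 0.059 for Tap1, -0.029 to 0.029 for Irf1 and -0.10 to 0.13 for Irf8. With array weights the sign turned for Ifit1 (-0.061), Ifit2 (0.050), Ifit3 (0.071), Oas1a (-0.071), Oasl2 (-0.072), Psmb8 (-0.047), Irf1 (-0.014) and Irf8 (-0.044). With the Xist covariate it turned for Ifit1 (-0.084), Ifit2 (0.085), Oas1a (-0.088), Oasl2 (-0.099), Usp18 (0.019), Irf1 (-0.033) and Stat2 (-0.010). With a further quantile normalization it turned for Ifitm3 (-0.0020), Tap1 (0.00027) and Irf1 (-0.025), and with the mean of probe sets for Irf8 (-0.073). Arrays give no read depth. Signals near the floor limit Ifit1, Oasl2, Mx1 and Cxcl10.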
